A study of Mus musculus with 6 samples.

Results

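The variable (Trav) and joining (Traj) gene segments of the T cell receptor α locus (Tra) were followed in RNA-Seq libraries of stage 0 invariant natural killer T (iNKT) cells of the mouse thymus. All rows of the count table whose symbol was Trav or Traj followed by a number were taken, which gave 188 of 48397 rows, 128 of them Trav and 60 Traj. The groups were 3 BALB/c libraries, from mice with wild-type Zap70, and 3 SKG libraries, from mice that carry a hypomorphic mutation of the TCR signalling kinase Zap70 on the same BALB/c background. For each library the thymi of 3 mice, 8 to 10 weeks old, were pooled, and about 1000 cells were sorted by binding of the PBS57-loaded CD1d tetramer and a CD44-negative, CD24-positive, CD69-positive, CD4-low or negative and CD8-negative surface profile. Values given as a series of 3 are those of replicates 1, 2 and 3 of a genotype, in that order. A replicate is thus a pool of mice, and the level of a transcript in a pool cannot be split into the number of cells that carry it and the amount per cell.

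A functional Tra gene is made when a V segment is joined to a J segment, and the DNA between them is lost from that allele. On an allele joined to Traj18, the J segments 5′ of Traj18 are therefore gone, whereas those 3′ of it stay in the DNA and in the unspliced transcript. Joining in the thymus begins with V segments at the 3′ end of their array and J segments at the 5′ end of theirs, and can be repeated outwards. The receptor of iNKT cells is nearly invariant and joins Vα14, encoded by Trav11 and its copy Trav11d, to Traj18. Other Trav and Traj segments can be transcribed from the second allele, from alleles that are not joined, or from other cells in the sort, and gene counts do not show which segments were joined to each other.

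In GRCm38 the Trav segments lie at chr14:52427928-53977678 over 1549.751 kb and the Traj segments at chr14:54155005-54218842 over 63.838 kb, all on the plus strand. Genes of the TCRδ locus lie between them, and the constant gene Trac lies at chr14:54220521-54224206. The Traj run from Traj61 at the 5′ end to Traj1 at the 3′ end, and each is a single exon of 29 to 72 bases, which is close to the read length of 50 nt. The Traj exons that the results turn on are printed below, 5′ to 3′ on the plus strand, from the GENCODE transcripts of GRCm38. Capitals mark a match to TTTGGNNNNGG or TTCGGNNNNGG on the strand shown, the codons of the phenylalanine-glycine-any-glycine motif that ends the CDR3 loop in a joined chain. Traj18 is the J segment of the iNKT receptor, Traj19 to Traj21 are its 5′ neighbours and the most read Traj, Traj59 and Traj60 were higher in every SKG library, and Traj8 was higher in every BALB/c library. They lie at chr14:54155933-54155986 (Traj60), chr14:54156133-54156196 (Traj59), chr14:54198790-54198846 (Traj21), chr14:54199441-54199498 (Traj20), chr14:54200386-54200446 (Traj19), chr14:54200777-54200842 (Traj18) and chr14:54209918-54209954 (Traj8).
Traj60: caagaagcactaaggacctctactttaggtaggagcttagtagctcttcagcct
Traj59: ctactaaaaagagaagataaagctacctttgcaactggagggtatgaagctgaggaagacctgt
Traj21: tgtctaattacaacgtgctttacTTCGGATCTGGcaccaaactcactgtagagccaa
Traj20: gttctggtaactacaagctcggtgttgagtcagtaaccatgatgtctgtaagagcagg
Traj19: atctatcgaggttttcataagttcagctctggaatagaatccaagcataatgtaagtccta
Traj18: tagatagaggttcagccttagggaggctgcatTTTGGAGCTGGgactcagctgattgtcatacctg
Traj8: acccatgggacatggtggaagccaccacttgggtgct

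These letters were found in 43 of the 60 Traj exons (71.7%). Of the 17 exons without them, 8 are annotated as pseudogenes, among them Traj8 and Traj60, and 9 as genes, among them Traj19, Traj20 and Traj59. The 2 most read Traj were thus both exons without the motif. Segments without it held 32.0%, 43.2% and 45.2% of the reads on Traj other than Traj18 for BALB/c and 33.1%, 63.3% and 57.9% for SKG. The genotypes overlapped, and the libraries labelled replicate 1 were the lowest of both genotypes. Between any 2 of Traj18 to Traj21 the longest shared run was 4 to 7 bases, so no read of 50 nt that lies within these exons could belong to more than 1 of them.

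The libraries held 37176544 to 43115544 reads on genes, of which 4208 to 6814 per library lay on Trav and 410 to 1330 on Traj. The SKG replicate 1 held the lowest number of Traj reads, 410, and the next lowest library held 960. Trac, to which every functional α chain is spliced, had 26402 to 37840 reads per library and a log2 fold change, SKG over BALB/c, of -0.02 with a standard error (SE) of 0.15 (edgeR's quasi-likelihood test, FDR = 0.999). Per 1000 Trac reads there were 180, 159 and 156 Trav reads for BALB/c and 152, 163 and 188 for SKG. The corresponding Traj values were 35.1, 40.1 and 28.1 for BALB/c and 14.5, 30.1 and 42.1 for SKG. Both genotypes overlapped in both measures. The summed CPM of 8 iNKT stage 0 markers was 5748 to 6634 for BALB/c and 5798 to 6622 for SKG, and none of these markers was at 0. Single markers of the list did not overlap between the genotypes. Egr2 had 1097 to 1547 CPM for BALB/c and 493 to 956 for SKG, the sort marker Cd69 had 312 to 391 and 152 to 250, and Slamf6 had 2450 to 2877 and 2962 to 3631. The BALB/c replicate 1 and the SKG replicate 3 held the highest sums for markers of other cells. In the BALB/c replicate 1 the summed CPM was 467 for 9 double-positive thymocyte markers against 72.5 to 244 in the other libraries, and 94.9 for 6 B cell markers, with Cd22 at 0 in all libraries, against 4.47 to 45.0. For 6 myeloid markers, with Cd14 at 0 in all libraries, it was 229 there and 243 in the SKG replicate 3, against 71.7 to 107 elsewhere. For 5 thymic epithelial markers, with Krt5 and Psmb11 at 0 in all libraries, it was 86.9 in the SKG replicate 3 and 10.01 to 40.3 elsewhere. The γδ T cell list, of which 5 of 8 genes were in the table and Trdv4 was at 0, summed to 7.79 to 21.5 and showed no such library. Their part in the Trav and Traj values was not tested, and shares along the arrays are also given without these libraries where they move.

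Of the Vα14 copies, Trav11d was the most read Trav of all, whereas Trav11 held few reads. Trav11d, at chr14:52824357-52824912, held 1264, 803 and 1181 reads for BALB/c and 938, 931 and 1016 for SKG. Trav11, at chr14:53519303-53519859, held 7, 1 and 4 reads for BALB/c and 5, 7 and 3 for SKG. The 2 transcripts are the same apart from 1 terminal base, so that no window of 50 bases within either is unique. The reads thus fell almost wholly on 1 of 2 exon sequences that cannot be told apart within the exons, and where in the gene they lay is not shown by gene counts. A further copy, Trav11n at chr14:53135122-53135678, is annotated as a pseudogene. Its transcript differs from Trav11d by 8 substitutions, counted from 1 at the first base of the start codon and with the Trav11d base first: C10T, C33T, T105C, C138G, C201A, G217C, T240C and A266G. C138G makes an in-frame stop codon at bases 136 to 138, the only in-frame stop in the 3 transcripts. Bases 91 to 180 of the copies are printed below because they show this change, with the differing bases in capitals.
Trav11d: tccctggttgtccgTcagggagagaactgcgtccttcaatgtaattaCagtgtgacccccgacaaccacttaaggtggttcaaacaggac
Trav11n: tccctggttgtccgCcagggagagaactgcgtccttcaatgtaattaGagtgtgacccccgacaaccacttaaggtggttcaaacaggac

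Trav11n held 218, 220 and 251 reads for BALB/c and 190, 156 and 181 for SKG. In 78.6% of its windows of 50 bases the sequence occurred in no other annotated transcript. It was among the 5 most read Trav other than Trav11 and Trav11d, with 4.30% ± 1.03 (SD, n = 3) of all Trav reads for BALB/c and 3.49% ± 0.790 (SD, n = 3) for SKG. In CPM its 3 BALB/c libraries lay above the 3 SKG libraries, with a log2 fold change of -0.29 and an SE of 0.79 (edgeR's quasi-likelihood test, unadjusted p = 0.727), and as a share of Trav reads the genotypes overlapped. Of the reads on the 3 copies, 14.6%, 21.5% and 17.5% lay on Trav11n for BALB/c and 16.8%, 14.3% and 15.1% for SKG. The 3 copies together made up 21.9%, 24.3% and 25.6% of Trav reads for BALB/c and 26.3%, 21.1% and 20.4% for SKG. The mice are BALB/c and the reference genome is that of C57BL/6, so a Trav11n read is a read that best matched this reference copy.

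Among the 126 Trav other than Trav11 and Trav11d, 40 had a read in all 6 libraries and 11 in 1 library only. Of the 128 Trav, 17 had no read in any library, 12 of which are annotated as pseudogenes. The reads were spread over many segments. The effective number of segments was taken as the inverse Simpson index of their shares. It was 28.2, 22.9 and 30.7 for BALB/c and 23.6, 27.3 and 16.7 for SKG, and the genotypes overlapped. The most read was Trav3-3, with 4.04%, 9.29% and 6.11% of all Trav reads for BALB/c and 10.2%, 3.35% and 10.8% for SKG. It was followed by Trav6d-5, Trav14-1, Trav7-4 and Trav11n, then by Trav14d-3-dv8, Trav9d-1, Trav3-1, Trav9n-1, an annotated pseudogene, and Trav16d-dv11. The same 10 led when reads were counted per base of exon.

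**Figure D1:**
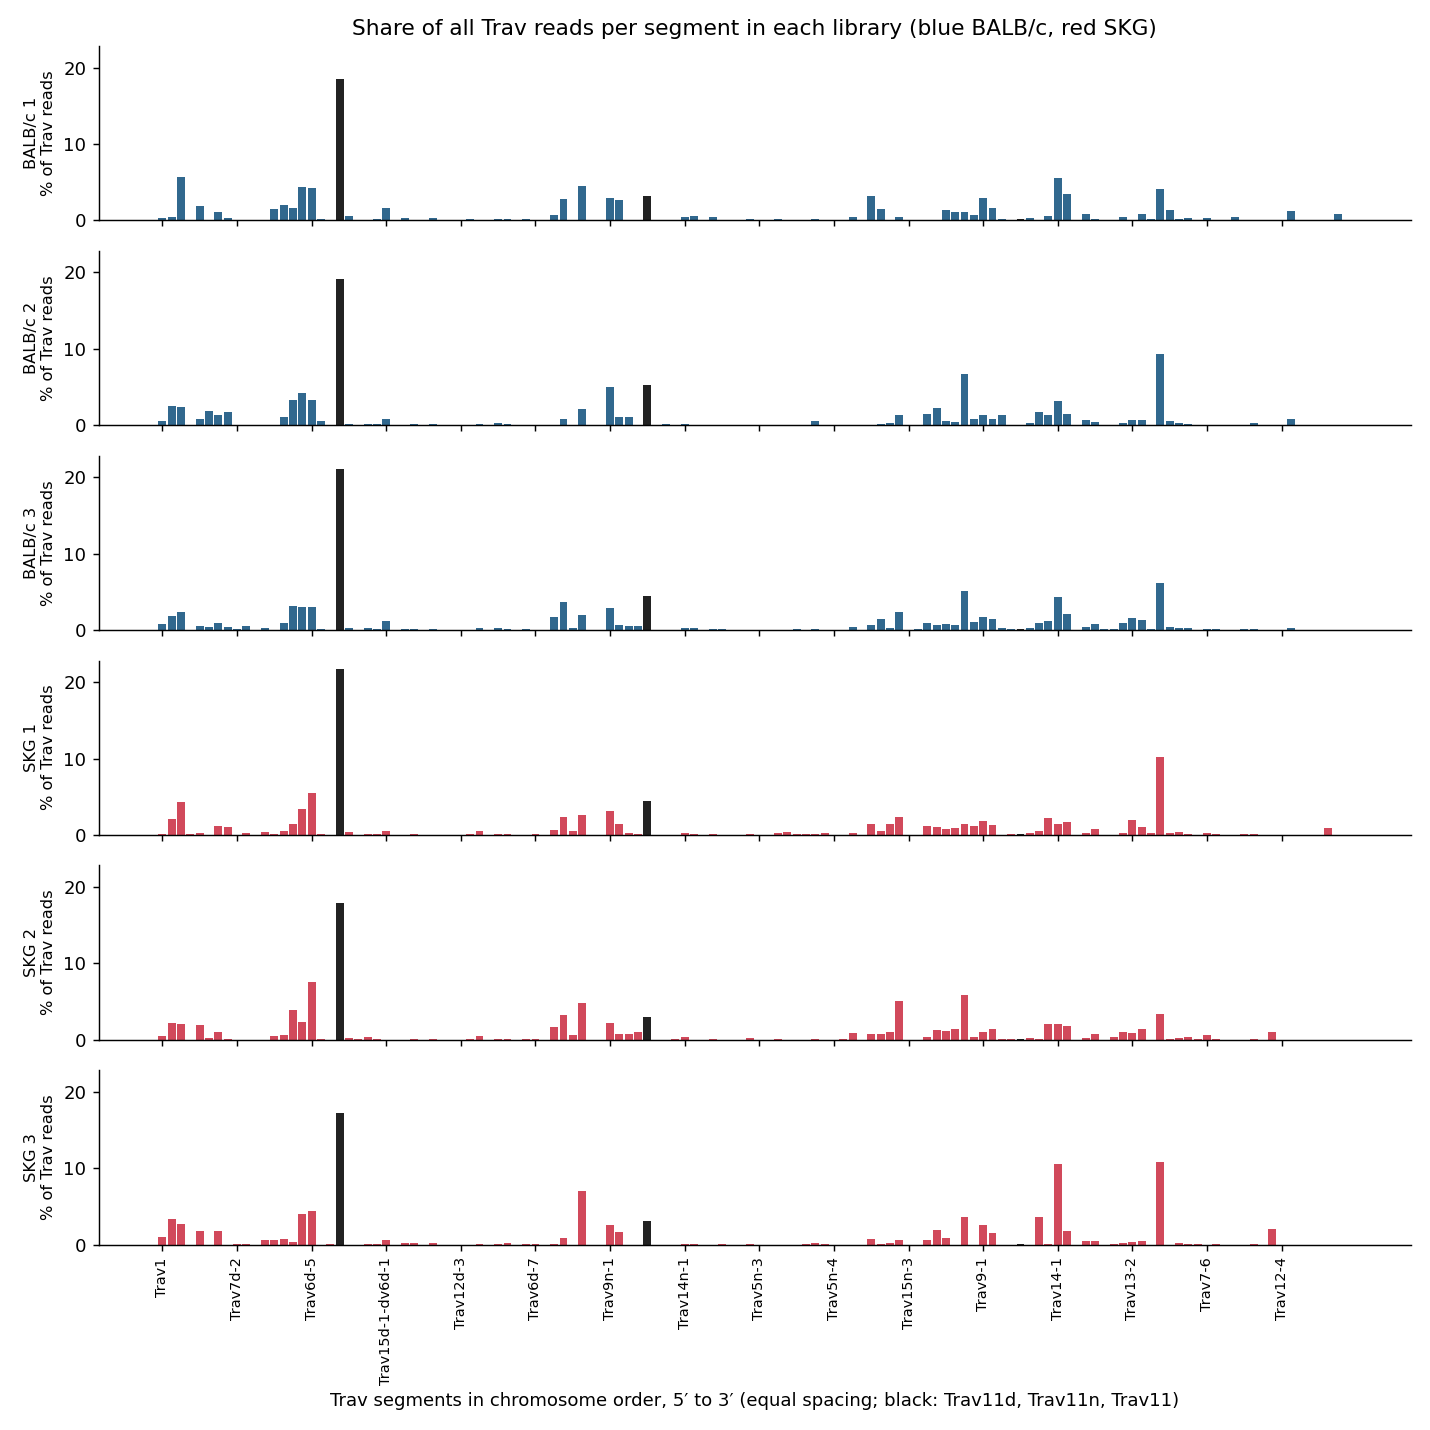
Each panel is 1 library and each bar the percentage of its Trav reads on 1 segment, in chromosome order from 5′ to 3′ at equal spacing. Black bars are Trav11d, Trav11n and Trav11, and the same clusters of segments recur in all 6 libraries.

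Of these 10, only Trav6d-5 had shares that did not overlap between the genotypes. Its shares were 4.24%, 3.33% and 2.96% for BALB/c and 5.43%, 7.55% and 4.42% for SKG, a mean of 3.51% ± 0.660 (SD, n = 3) against 5.80% ± 1.60 (SD, n = 3). The lowest SKG library lay just above the highest BALB/c library, and in CPM the genotypes overlapped. The two-sided exact permutation test gave p = 0.1, the smallest that 3 against 3 libraries allow, and 0.667 after Benjamini-Hochberg adjustment over the 20 most read Trav and Traj. Trav14-1 varied more within a genotype than between them, with 63 and 105 reads in the SKG replicates 1 and 2 and 624 in the SKG replicate 3. Trav7-4 was low in both libraries labelled replicate 1, with 76 reads for BALB/c and 60 for SKG, against 210 to 304 elsewhere.

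Grouped by family number, Trav11 led with a mean of 23.3% of Trav reads over the 6 libraries, followed by Trav14 (12.1%), Trav3 (11.2%), Trav6 (11.2%), Trav9 (10.1%) and Trav7 (8.27%). Trav19, Trav20 and Trav23 had no read, and Trav1, the 5′ end of the array, had 23, 21 and 44 reads for BALB/c and 2, 28 and 62 for SKG. Reads shared by near-identical copies limit single Trav values: in 75 of 128 Trav under 50% of the windows of 50 bases were unique among annotated transcripts, and in 42 none was. The 40 of these other than Trav11 and Trav11d still held 916 reads. Trav segments also used by the TCRδ chain, marked dv in their symbol, held 15.6%, 6.61% and 12.3% of the reads on the 126 Trav for BALB/c and 11.2%, 12.4% and 12.7% for SKG. Trdc, the TCRδ constant gene, had 10.9 to 23.4 reads per 1000 Trac reads for BALB/c and 14.6 to 22.04 for SKG.

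By position, the 19 Trav 5′ of Trav11d held 26.9% ± 3.32 (SD, n = 3) of the reads on the 126 Trav for BALB/c and 26.8% ± 1.396 (SD, n = 3) for SKG. The 72 between Trav11d and Trav11 held 46.1% ± 2.30 and 44.2% ± 7.59 (SD, n = 3 each). The 35 Trav 3′ of Trav11, the V segments nearest to the J array, held 25.7%, 26.9% and 28.2% for BALB/c and 29.1%, 20.005% and 37.7% for SKG. The genotypes overlapped in all 3 zones, and the SKG libraries spread over a wider range than the BALB/c libraries in the last. The mean difference there, SKG minus BALB/c, was 1.98 percentage points, and -2.42 without the SKG replicate 3. When the Trav were split by order into 3 runs of 42, the 5′-most, middle and 3′-most runs held 31.5%, 29.4% and 39.1% for BALB/c and 30.1%, 30.8% and 39.1% for SKG, again with overlap in each.

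The Traj reads lay on fewer segments than the Trav reads. Of the 59 other than Traj18, 4 had a read in all 6 libraries (Traj19, Traj20, Traj21 and Traj27) and 12 in 1 library only, and 8 of the 60 had no read. Traj18, the iNKT J segment, held 6.62%, 4.06% and 6.03% of all Traj reads for BALB/c and 15.4%, 6.15% and 3.34% for SKG. These are shares of reads and do not give the share of cells that use Traj18. The effective number of segments was 14.96, 11.1 and 12.1 for BALB/c and 14.3, 10.2 and 8.01 for SKG. Thinned to 347 reads per library, 25.0, 23.8 and 35.7 segments were detected for BALB/c and 24.0, 23.8 and 15.3 for SKG.

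The largest mean shares over the 6 libraries lay just 5′ of Traj18, although Traj28 led in the BALB/c replicate 1, with 157 reads, and Traj22 in the SKG replicate 1, with 33. Traj20 held 84, 182 and 170 reads for BALB/c and 26, 152 and 315 for SKG. Traj19, which ends 330 bases before Traj18, held 103, 180 and 130 reads for BALB/c and 28, 151 and 207 for SKG. Traj21 held 30, 66 and 104 reads for BALB/c and 32, 83 and 99 for SKG. Per 100 bases of exon over all libraries, this gave 1602 reads for Traj20, 1310 for Traj19 and 726 for Traj21. These neighbours together made up 16.3%, 40.4% and 39.9% of all Traj reads for BALB/c and 21.0%, 40.2% and 47.1% for SKG. The share was thus near 40% or above in 4 libraries and lower in the replicate 1 of each genotype, and the genotypes did not separate. On the 3′ side, Traj17 held 6, 33 and 17 reads for BALB/c and 26, 3 and 0 for SKG, and Traj16 held 0, 48 and 10 for BALB/c and 18, 0 and 0 for SKG.

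**Figure D2:**
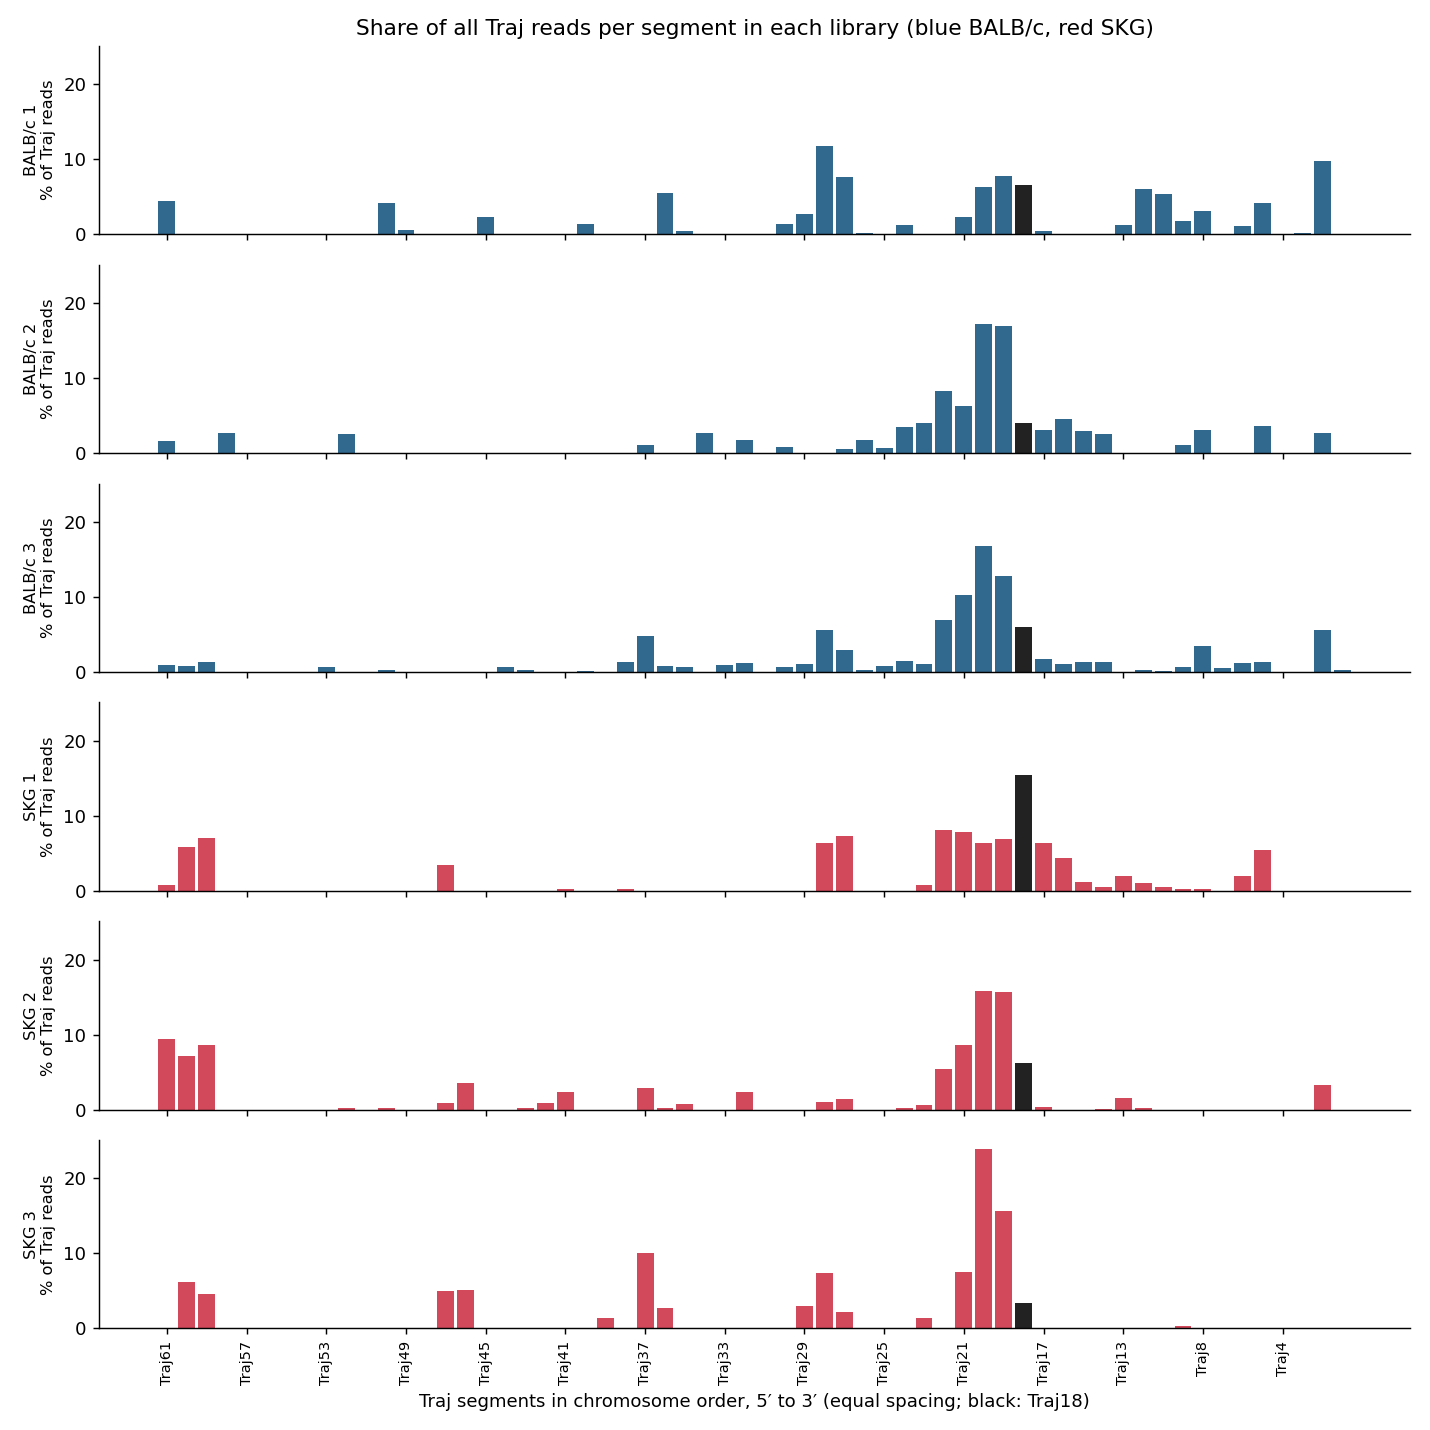
Each panel is 1 library and each bar the percentage of its Traj reads on 1 segment, in chromosome order from 5′ to 3′ at equal spacing, with Traj18 in black. Bars at Traj19 to Traj21 are present in every library, and those at Traj19 and Traj20 are lower in both replicates 1. Bars at the 5′ end (Traj59 and Traj60) are taller in the SKG libraries.

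The 43 Traj 5′ of Traj18 held 64.4%, 75.3% and 80.02% of the reads on the 59 Traj for BALB/c and 72.0%, 94.2% and 99.5% for SKG. The 16 Traj 3′ of it held the rest, 442, 251 and 190 reads for BALB/c and 97, 52 and 7 for SKG. The mean 5′ share was 73.3% ± 8.01 (SD, n = 3) for BALB/c and 88.6% ± 14.6 (SD, n = 3) for SKG, a difference of 15.3 percentage points. The genotypes overlapped through the SKG replicate 1, which has the fewest Traj reads, 347 of them on the 59 segments, with an exact Clopper-Pearson 95% interval of 67.0% to 76.7%. Without this library the genotypes did not overlap and the difference was 23.6 points. Without the BALB/c replicate 1 it was 10.9 points, and without the SKG replicate 3 it was 9.89 points.

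The genotypes stood apart at the 5′ end of the array. The 5′-most 20 Traj, Traj61 to Traj42, held 12.2%, 7.18% and 5.15% for BALB/c and 20.2%, 33.1% and 21.6% for SKG. The means were 8.19% ± 3.65 (SD, n = 3) and 24.9% ± 7.08 (SD, n = 3), and all SKG libraries lay above all BALB/c libraries. Most of it came from Traj59, Traj60 and Traj61, which held 4.67%, 1.67% and 3.26% for BALB/c and 16.1%, 26.7% and 11.1% for SKG, also without overlap. Without these 3 segments the difference in the 5′-most run went from 16.8 to 3.23 percentage points, with these 3 chosen after their values were seen. With 1 library left out the difference in the 5′-most run was 12.7 to 19.1 points. The middle 20 Traj held 34.7%, 26.1% and 32.4% for BALB/c and 27.1%, 18.3% and 29.1% for SKG. The 3′-most 19 held 53.1%, 66.8% and 62.5% for BALB/c and 52.7%, 48.6% and 49.3% for SKG, where the lowest BALB/c library lay only just above the highest SKG library. No test was made on these sums, and the shares of 1 library add up to 100%, so a higher share at the 5′ end lowers the others.

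**Figure D3:**
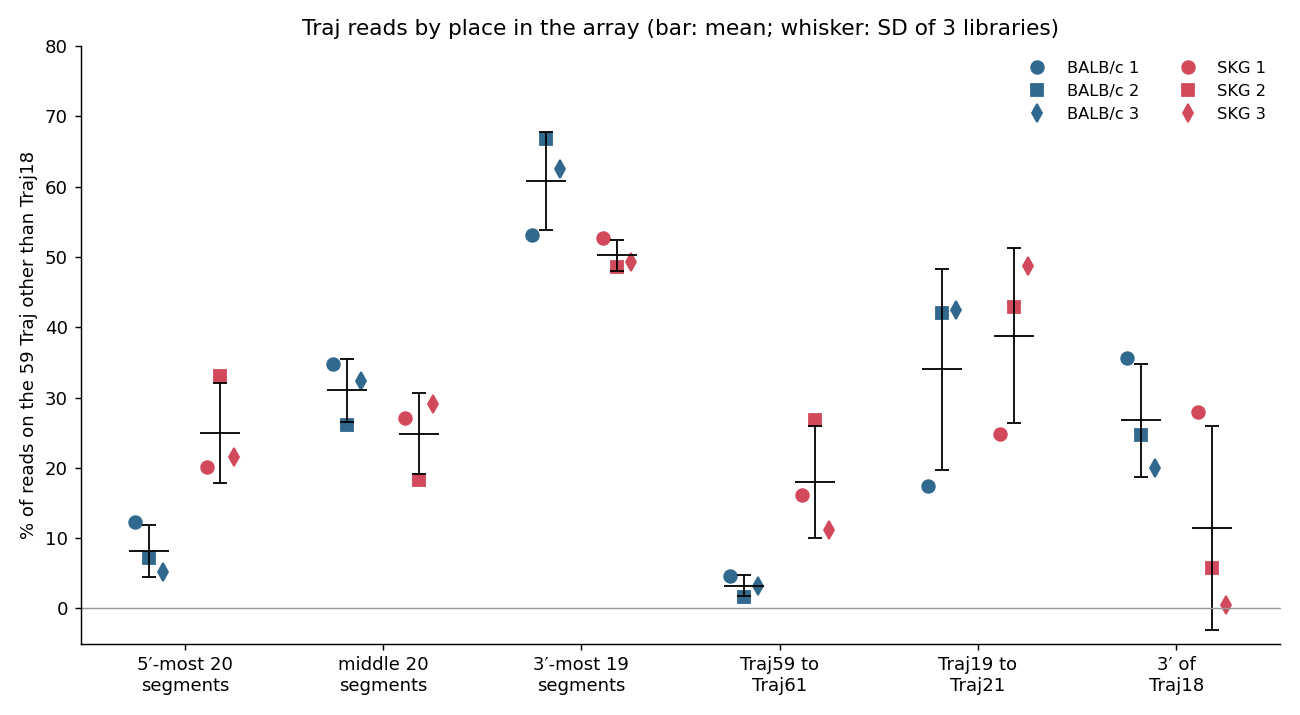
Points are the percentage of reads on the 59 Traj other than Traj18 in each library, for runs of segments along the array, with the mean as a bar and the SD of 3 libraries as whiskers. The 5′-most 20 segments and Traj59 to Traj61 are higher in all 3 SKG libraries, and the other runs overlap or lie close.

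The edgeR fit over all 12312 tested genes called none of the 55 Trav and 17 Traj that passed the filter on low counts. It called none of the other genes either (0% called), at the thresholds of FDR below 0.1 and 1.5-fold change. The paper used DESeq2 and reports genes called at these thresholds, so the 0% belongs to the edgeR fit. At an unadjusted p under 0.05 were 4 of the 72 segments (5.56%), against 5.45% of all genes tested. In CPM, 9 of the 72 did not overlap between the genotypes (12.5%), against 13.9% of all genes tested. Over both arrays these shares were near those of all genes. By array, 1 of 55 Trav (1.82%) and 3 of 17 Traj (17.6%) had an unadjusted p under 0.05. In CPM, 5 of 55 Trav (9.09%) did not overlap, all higher in BALB/c, and 4 of 17 Traj (23.5%), with 2 in each direction. Over all genes, 7.12% did not overlap and were higher in BALB/c, and 6.77% were higher in SKG. Some segments of both arrays, among them Trav10, Trav9-4 and Trav17, passed the filter only through the genotype in which they were high. The Traj counts also rest on only 17 segments. The counts and directions by array are therefore given without further reading. The median log2 fold change was -0.08 for the Trav and -0.45 for the Traj tested, against -0.02 over all genes. DESeq2's Wald test called 4 segments, Trav3-4, Trav17, Traj47 and Traj8, among 370 genes. It was given the 163 segments and 25935 genes with a read, without the filter on low counts used for edgeR. Its own filter left segments with few reads, Traj30 among them, without an adjusted p.

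Trav17 held 79, 32 and 14 reads in BALB/c and 0 in all SKG libraries. At a floor of 3 reads per library its mean CPM was at least 13.2-fold higher in BALB/c, and at least 7.50-fold without the BALB/c replicate 1, which held 63.2% of the reads (edgeR's quasi-likelihood test, unadjusted p = 0.00363, FDR = 0.619). All of its windows of 50 bases are unique among the annotated transcripts. Traj8, an annotated pseudogene with an exon of 37 bases, held 41, 33 and 35 reads for BALB/c and 1, 0 and 0 for SKG. With all libraries of a genotype summed, this was 101.8 times as many reads per normalized library in BALB/c, with an exact 95% interval of 17.9 to 4057 that covers counting error only (edgeR's quasi-likelihood test, unadjusted p = 0.00277, FDR = 0.617). Both segments passed the filter on low counts only through the BALB/c libraries, in which they were high, and neither passed the FDR in any of the edgeR fits. Traj24 held 16, 37 and 15 reads for BALB/c and 0, 2 and 0 for SKG, a ratio of 31.8 with an interval of 8.46 to 267 taken in the same way (edgeR's quasi-likelihood test, unadjusted p = 0.0163, FDR = 0.830). Its unadjusted p was under 0.05 in 5 of the 11 other settings tried. Like Trav17 and Traj8, Traj24 passed the filter on low counts only through the BALB/c libraries, in which it was high.

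Higher in SKG were the neighbours Traj60 and Traj59, which are 146 bases apart. Traj60 held 0, 0 and 8 reads for BALB/c and 24, 69 and 81 for SKG, a log2 fold change of 4.61 with an SE of 1.87 (edgeR's quasi-likelihood test, unadjusted p = 0.0454, FDR = 0.901). The unadjusted p was under 0.05 in 5 of the 11 other settings tried, and in 1 of the 6 that leave out a library. Traj60 and Traj59 passed the filter on low counts only through the SKG libraries, in which they were high. Traj59 held 0, 0 and 14 reads for BALB/c and 29, 82 and 61 for SKG (log2 fold change 3.81, SE 1.92, edgeR's quasi-likelihood test, unadjusted p = 0.0906, FDR = 0.952). Both were at 0 in the same 2 BALB/c libraries and were read in the other 4. Traj61, 856 bases further 5′, differed from both, with 58, 17 and 9 reads for BALB/c and 3, 90 and 0 for SKG. As shares of Traj reads, Traj59 and Traj60 were the only 2 of the 10 most read Traj without overlap, at 0.461% ± 0.799 against 6.75% ± 1.98 and 0.264% ± 0.456 against 6.40% ± 0.701 (SD, n = 3 each; two-sided exact permutation tests, p = 0.1 for both, 0.667 adjusted over the 20 segments).

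**Figure D4:**
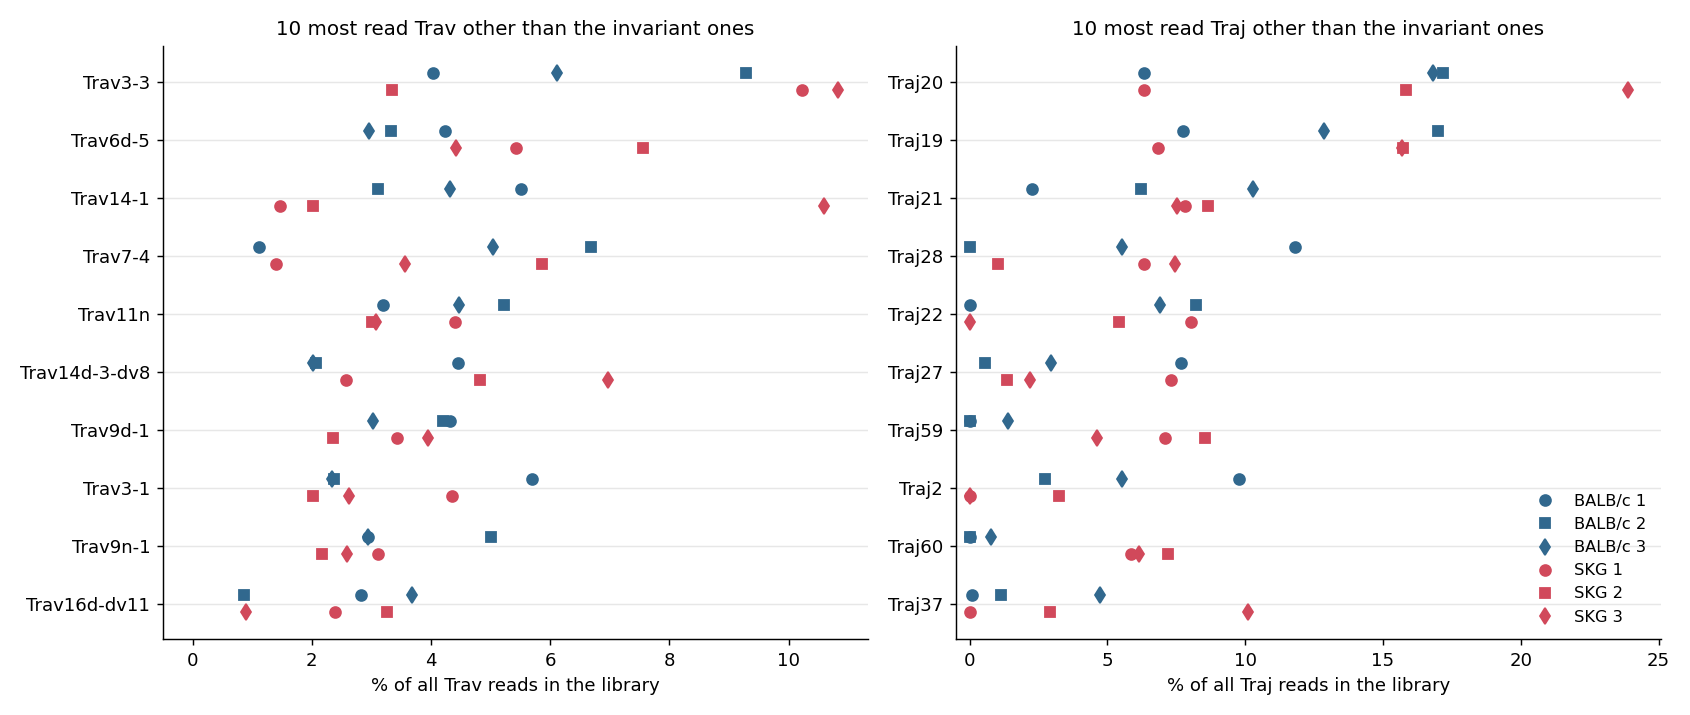
Points are the percentage of all Trav reads (left) or all Traj reads (right) in each library for the 10 most read segments of each array other than Trav11, Trav11d and Traj18. Trav6d-5, Traj59 and Traj60 are the segments without overlap between BALB/c (blue) and SKG (red).

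Other segments were read mainly in a few libraries. Traj47 held no read for BALB/c and 14, 8 and 66 for SKG, and its neighbour Traj46, 479 bases away, held no read for BALB/c and 0, 34 and 67 for SKG. Both failed the filter on low counts. Trav3-4 held 0, 0 and 1 reads for BALB/c and 1, 50 and 121 for SKG. Traj2, near the 3′ end, held 130, 29 and 56 reads for BALB/c and 0, 31 and 0 for SKG. Traj11 and Traj12 were read together in the BALB/c replicate 1, with 72 and 80 reads, against at most 2 and 4 elsewhere, and Trav22, an annotated pseudogene, held all of its 55 reads in that library. Over the segments with at least 100 reads, 1 library held over 50% of the reads for 7 of 46 Trav and 5 of 15 Traj. These included Trav6-1, with 78 of 115 reads in the BALB/c replicate 2, Trav6d-4 and Trav8n-2, with 99 of 170 and 220 of 398 in the BALB/c replicate 1, and Trav12-1, with 209 of 349 in the SKG replicate 3. Among the Traj, Traj37 held 133 of 222 reads in the SKG replicate 3 and Traj36, an annotated pseudogene, held 73 of 118 in the BALB/c replicate 1.

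Of the segments with at least 20 reads, shares of the array's reads did not overlap for 9 of 82 Trav, 7 of them higher in BALB/c, and for 8 of 39 Traj, 5 of them higher in BALB/c. Over all 17467 genes with at least 20 reads, CPM did not overlap for 10.9%, a measure scaled to the whole library and not to the array. The Trav higher in BALB/c were, beside Trav17, the following. Trav9-4 held 92, 22 and 21 reads for BALB/c and 9, 3 and 0 for SKG. Trav10 held 14, 56 and 16 reads for BALB/c and 0, 7 and 0 for SKG. Trav7-5 held 21, 13 and 16 reads for BALB/c and 10, 11 and 0 for SKG, so that its groups were close. Trav15d-1-dv6d-1 held 105, 33 and 68 reads for BALB/c and 22, 0 and 37 for SKG. Trav7d-4 and Trav14d-1 also stood apart as shares, at 0.963% to 2.05% against 0.441% to 0.781% and at 0.107% to 0.143% against 0.0464% to 0.0963%. Few of the windows of Trav7d-4 and Trav15d-1-dv6d-1 were unique, 21.9% and 12.7%, and none of those of Trav14d-1. Among the Traj, Traj30 held 19, 9 and 7 reads, Traj26 held 2, 18 and 3 reads, and both held none for SKG. Traj9 held 23, 12 and 7 reads for BALB/c and 1, 0 and 5 for SKG.

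**Figure D5:**
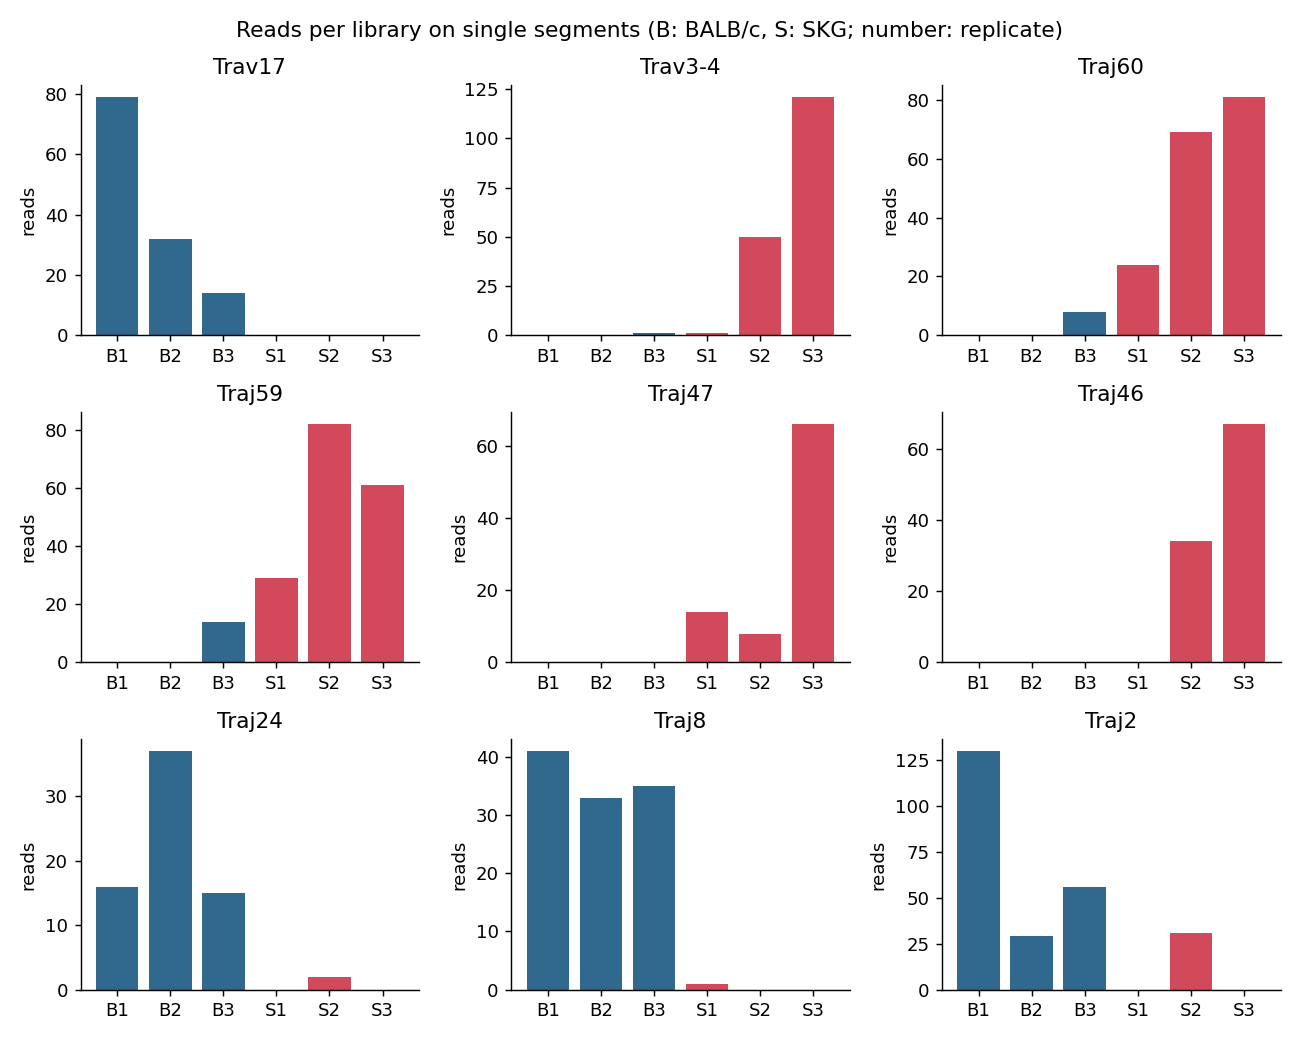
Bars are reads per library on 9 segments named in the text, chosen after their values were seen, with a separate axis for each. Trav17, Traj8 and Traj24 are at or near 0 in the SKG libraries (red), and Traj59 and Traj60 are at 0 in the BALB/c (blue) replicates 1 and 2.

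As a description across segments, the libraries were alike in which Trav they used. Spearman's rho between the shares of 2 libraries had a median of 0.71 over the 9 pairs across genotypes and 0.70 over the 6 pairs within a genotype. For the Traj these medians were 0.34 and 0.48. Segments share a library and its depth, and no test was made.

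Of 25 genes for V(D)J recombination and control of the Tra locus, 24 were tested and none passed the FDR. At an unadjusted p under 0.05 in edgeR's quasi-likelihood test were 4 of them (16.7%), against 5.45% of all genes tested. The list was chosen with earlier results of these data known, so this share is not read as an excess. Xrcc5, which encodes the Ku80 subunit of the end-joining machinery, had 106, 93.6 and 84.8 CPM for BALB/c and 53.1, 48.1 and 39.0 for SKG (log2 fold change -1.02, SE 0.25, FDR = 0.671). Tcf3, the E protein gene, had 402, 381 and 391 CPM for BALB/c and 582, 648 and 496 for SKG (log2 fold change 0.56, SE 0.14, FDR = 0.686). The other 2, Ctcf and Ets1, were also higher in SKG. The recombinase genes Rag1 and Rag2 varied widely within genotypes. Rag1 held 1438, 83 and 4 reads for BALB/c and 0, 379 and 34 for SKG, and Rag2 held 1044, 2 and 2 for BALB/c and 0, 3 and 398 for SKG. The highest values of both lay in the BALB/c replicate 1, the library with the most double-positive thymocyte markers.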

How the data were processed

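RNA-Seq of 3 BALB/c and 3 SKG libraries was analysed from the deposited table of counts per gene, which holds whole numbers of reads without normalization. According to the methods and the submitters' processing notes, the authors aligned reads with HISAT2 2.1.0 to GRCm38 and counted them on exons with featureCounts (Subread 1.4.4), without strand, with Ensembl release 85 and a mapping quality of at least 10, which removes reads shared by near-identical copies. The labels and the methods name different amplification kits. A second deposited table holds the authors' DESeq2 (1.14.1) comparison and was not used.

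Segments were matched by symbol to the GENCODE annotation (GRCm38) for position and sequence. Windows of 50 bases were searched in all annotated transcripts, both strands, because a genome sequence was not used here. Shares are reads on a segment over reads on its array, with exact Clopper-Pearson 95% intervals that cover counting error only. Counts were fitted in R 4.3.3 with edgeR 4.0.16 (filterByExpr, TMM, quasi-likelihood F test, no covariates, Benjamini-Hochberg adjustment over 12312 genes). Standard errors were taken as the size of the log2 fold change over the square root of F. Shares of the 20 most read segments were compared by two-sided exact permutation tests in SciPy 1.17.1. The fit was also run on simulated data with large changes and a smaller spread between libraries than in these data (common dispersion 0.842). That run checked the code only and does not show how many changes the fit could find here.

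Segments named are the 10 most read Trav and Traj, the neighbours of Traj18, the array ends, segments whose shares do not overlap or with an unadjusted p under 0.05, and segments with over 50% of at least 100 reads in 1 library. Segments named outside this rule were chosen after their values were seen. The members and lists were chosen with earlier results of these data known. Alternatives were DESeq2 1.42.0, other size factors, no filter, replicate blocks and each library left out. The labels do not say whether the pools were prepared apart, but the methods state that the samples of each genotype were independent. The paper calls them biological replicates. The p-values measure only the spread between these pools, part of which may be technical.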

Additional observations from a re-analysis of the deposited data

How the results depend on the processing

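At 0 of 72 segments called, edgeR also called 0 with DESeq2's size factors, with either replicate block and with each library left out, and 0 of 163 without the filter on low counts. DESeq2's Wald test, also without that filter, called 4 of 163, but its own filter left some segments with few reads without an adjusted p. Over all genes the count of 0 became 2 of 25935 without the filter, and was 0 with each library left out. With DESeq2's Wald test it was 370 of 25935, not all of which had an adjusted p. Segments at an unadjusted p under 0.05 in edgeR numbered 4 of 72, beside 671 of 12312 genes. DESeq2's Wald test gave 10 of 163, beside 1443 of 25935 genes. The title numbers as a replicate block gave 5 of 72, beside 585 of 12312 genes, and the library numbers 5 of 72, beside 443. With a library left out the count was 2 to 8. It was 8 of 86 without the BALB/c replicate 3, beside 932 of 13015 genes. Without the SKG replicate 3 it was 2 of 84, beside 802 of 13863 genes. The number of segments tested changed too, so these counts are not read as more or less change in the segments. Residuals of libraries that share a title number correlated at -0.145 to -0.00962 and those that share a library number at -0.0384 and 0.00289, so the numbers were not taken as pairs. The difference in the share of Traj reads 5′ of Traj18 was 9.89, without the SKG replicate 3, to 23.6, without the SKG replicate 1, percentage points with a library left out and 13.1 to 21.3 in the other settings. That in the Trav 3′ of Trav11 was -2.42 to 6.46 with a library left out, below 0 without the SKG replicate 3, and -0.947 in Trav with over 50% of windows unique. That in the 5′-most 20 Traj, with alternatives chosen after seeing the data, was 12.7 to 19.1 with a library left out and 3.23 without Traj59 to Traj61. The cause of these changes was not tested, and with 410 Traj reads the SKG replicate 1 gives the least precise Traj shares.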
